A study of Mus musculus with 2 samples.

Results

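Gm37924, Gm26809, Gm30948 and Gm47906 are 4 mouse genes annotated as noncoding whose piRNA-length small RNAs lay mostly on the strand opposite to the annotated transcript. Piwi-interacting RNAs (piRNAs) are small RNAs that guide PIWI proteins in germ cells. The 4 loci were chosen from the measured values, by their many reads of 24–33 nt and by the antisense share of those reads, and therefore abundance and strand are given as a description with no test. Of 16088 genes with at least 1 such read matching that gene alone, 1052 had 20 or more reads over both libraries, and 88 of these (8.37%) were at least 80% antisense. The 4 loci held the most reads of these 88 genes, with Gm47906 last at 841 reads. The next gene, Gm47652, had 719 reads, of which 82.1% were antisense.

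The libraries came from whole testes of C57BL/6 mouse embryos at embryonic day 16.5, obtained by natural mating. One library was wild type (WT), and the other was from Hsp90-alpha knockout (KO) embryos, which lack the germ cell chaperone HSP90α. Each was made from the pooled RNA of 20 testes, so the series holds 1 library per genotype and no replicate check of any KO/WT difference. Both were size-selected small RNA libraries, in which the mRNA of the deleted gene was not measured. In whole testes, fewer germ cells and less piRNA per cell cannot be told apart.

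In total, 6409305 reads of 789404 different sequences were obtained from WT testes and 5589326 reads of 512076 from KO testes. Reads of annotated miRNA hairpins numbered 2523084 and 2561491, and levels below are normalised reads, that is, reads per 1000000 of these miRNA reads. The hairpin Mir10b made up 55.9% of miRNA reads in WT and 55.2% in KO. At this depth 1 read is worth 0.396 normalised reads in WT and 0.390 in KO. Ratios are KO over WT with exact 95% intervals, and shares have 95% Wilson intervals. These intervals cover counting error only, and because the reads carry no molecular identifiers they are not independent molecules.

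Fetal prospermatogonia load piRNAs onto the PIWI proteins MILI and MIWI2, and the pathway is known for silencing retrotransposons before birth. Primary piRNAs are cut from long single-stranded precursors and tend to begin with uracil. A PIWI protein guided by such a piRNA cleaves a complementary RNA, and the new 5′ end lies 10 nt from that of the guide, so a secondary piRNA tends to carry adenine at position 10. A precursor need not be the annotated transcript of a locus, and an antisense piRNA requires RNA from the other strand. All 4 annotated transcripts are on the plus strand, so the antisense reads below correspond to minus-strand RNA.

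The loci lie on 4 chromosomes of build GRCm38 (GENCODE M21). Gm37924 (ENSMUSG00000102482.1, chr3:28879812-28883458) has 1 exon of 3647 nt and the class TEC, a transcript model awaiting experimental support. Gm26809 (ENSMUSG00000097815.1, chr6:18844220-18847360) is a lincRNA, a long intergenic noncoding RNA, with 3 exons and a transcript of 2981 nt. Gm30948 (ENSMUSG00000103168.1, chr12:115262684-115287908) is a lincRNA with 4 exons and a transcript of 4827 nt. Gm47906 (ENSMUSG00000114965.1, chr14:24833635-24835089) is a lincRNA with 1 exon of 1455 nt.

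Annotated genes on the minus strand overlapped 2 of the loci. Gm20186, a lincRNA on the minus strand, overlaps Gm26809 by 1451 nt. Reads shared by Gm26809 in antisense and Gm20186 were left out, and they numbered 68 in WT and 16 in KO. Gm30948 lies within the immunoglobulin heavy-chain variable genes and spans the minus-strand pseudogene Ighv1-57 over 433 nt. That pseudogene lies between exons of Gm30948, and the nearest genes on either side are Ighv8-7 and Ighv8-8. Neither of the other loci overlapped an annotated gene. The nearest gene upstream of Gm37924 is the minus-strand lincRNA Gm37867, at 25555 nt, and the protein-coding gene Gm1527 begins 9159 nt downstream. The nearest genes to Gm47906 are the lincRNAs 4930428N03Rik, 45115 nt upstream, and Gm10398, 74325 nt downstream.

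The 3 most read sequences of each locus are shown because they carry a large part of its reads. Their 5′ ends and lengths describe the reads assigned to a locus, and whether those reads were cut from RNA of that locus was not tested. All 12 were antisense. Position 1 and position 10 are in capitals, and T stands for uracil as in the deposited sequences. At Gm37924 (chr3, minus strand, exon 1) the second sequence began at 28881402, and the others began 2 nt away at 28881404. All ended within 2 nt of each other.
Gm37924 sequence 1: TataaggatAtacactggctttggtctt
Gm37924 sequence 2: TaaggatatAcactggctttggtctt
Gm37924 sequence 3: TataaggatAtacactggctttggtc

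At Gm26809 (chr6, minus strand, exon 2) the second sequence began at 18845066, and the others shared the 5′ end at 18844910.
Gm26809 sequence 1: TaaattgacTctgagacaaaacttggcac
Gm26809 sequence 2: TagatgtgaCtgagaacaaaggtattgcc
Gm26809 sequence 3: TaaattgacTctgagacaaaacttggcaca

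At Gm30948 (chr12, minus strand, exon 4) the first began at 115285171, and the other two began at 115284983. These were the sequences of the set that did not begin with uracil.
Gm30948 sequence 1: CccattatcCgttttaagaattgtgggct
Gm30948 sequence 2: AgacctgtaAtggcctgatgcctcgagg
Gm30948 sequence 3: AgacctgtaAtggcctgatgcctcgag

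At Gm47906 (chr14, minus strand, exon 1) all 3 began at 24834104 and differed only at the 3′ end.
Gm47906 sequence 1: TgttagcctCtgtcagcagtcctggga
Gm47906 sequence 2: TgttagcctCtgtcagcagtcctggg
Gm47906 sequence 3: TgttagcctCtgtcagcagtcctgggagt

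The first Gm37924 sequence was read 228 times in WT and 162 times in KO, and the second 91 and 97 times. Their ratios were 0.700 (0.569 to 0.860) and 1.05 (0.781 to 1.41), so the second was at a level in KO that could not be told from WT at this depth. The first Gm26809 sequence was read 244 and 60 times, and its ratio was 0.242 (0.179 to 0.322). The second Gm26809 sequence, from another 5′ end, had nearly the same ratio, 0.243 (0.143 to 0.396), on 85 and 21 reads. The first Gm30948 sequence was read 83 times in WT and 41 times in KO, and its ratio was 0.487 (0.326 to 0.716). The second Gm30948 sequence was read 66 and 39 times, and its ratio was 0.582 (0.381 to 0.878). The first Gm47906 sequence was read 518 and 181 times, which was 84.6% of the reads of its locus in WT and 79.0% in KO. Its ratio was 0.344 (0.289 to 0.408). Hence the value of Gm47906 as a locus was largely that of a single sequence.

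The antisense share was high at every locus and close between the libraries. It was 99.1% of 747 reads in WT and 98.9% of 473 in KO at Gm37924. At Gm30948 it was 97.8% of 585 reads and 97.2% of 282. At Gm47906 it was 99.7% of 612 reads in WT. In KO, 0 of 229 Gm47906 reads were sense, an antisense share of 100% (98.4% to 100%). Gm26809 had the lowest antisense share, 83.8% of 906 reads in WT (81.2% to 86.0%) and 82.6% of 241 in KO (77.3% to 86.8%), close to the limit of 80% by which the loci were chosen. Its sense reads, 147 in WT and 42 in KO, began at 61 and 30 positions and were thus not a single product. Gm26809 reads left out of these shares were less often antisense. The share was 68.2% for its reads also matching other genes and 62.0% for its reads with 1 mismatch. At the other loci these shares were 79.6% to 96.6% and 90.2% to 98.5%.

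Read starts clustered at few positions, in a pattern that differed between loci. In the transcript coordinates of each gene, counted from its 5′ end, the most read start was position 1593 of Gm37924, 630 of Gm26809, 1902 of Gm30948 and 470 of Gm47906. It was the most read in WT and in KO at all 4 loci. Position 470 held 93.1% of Gm47906 reads in WT (90.9% to 94.9%) and 91.7% in KO (87.4% to 94.6%). Position 1593 held 44.2% of Gm37924 reads in WT and 46.1% in KO, and position 630 held 39.1% and 35.7% at Gm26809. Position 1902 held 19.7% of Gm30948 reads in WT (16.6% to 23.1%) and 25.5% in KO (20.8% to 30.9%). Gm47906 reads began at 9 positions in WT and 6 in KO. The corresponding numbers were 69 and 47 for Gm37924, 96 and 65 for Gm30948, and 163 and 83 for Gm26809. The number of positions seen depends on the number of reads, which was lower in KO.

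**Figure D1:**
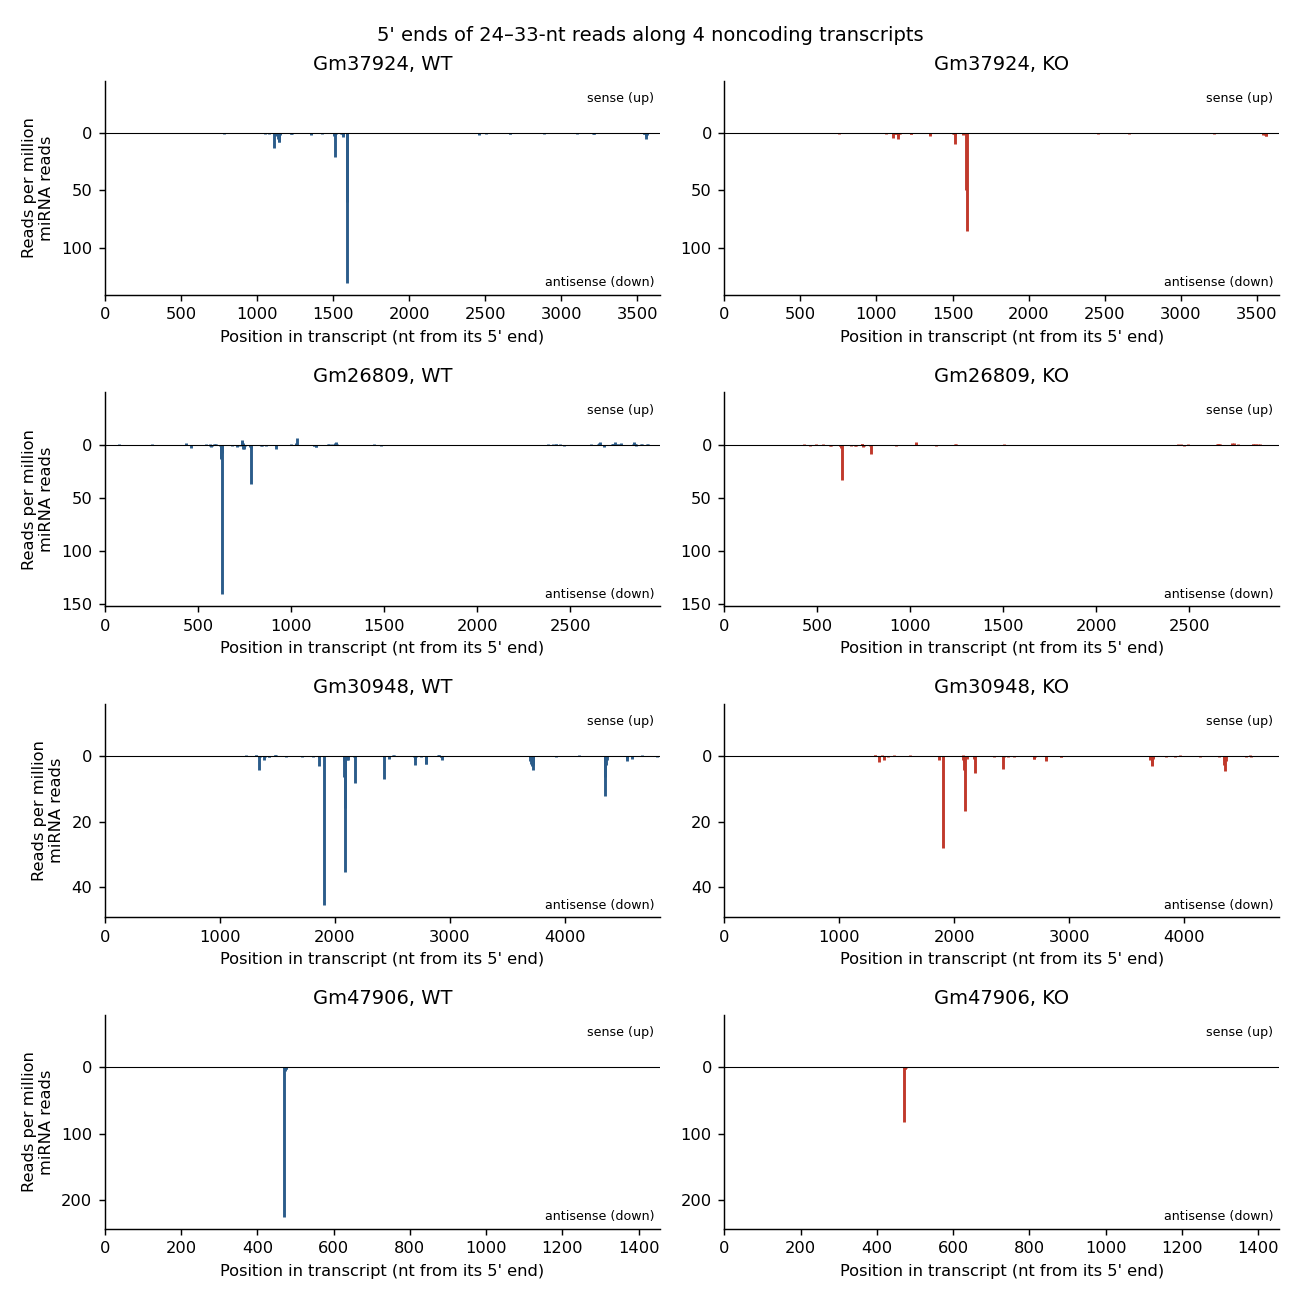
The position of each 5′ end in the transcript (horizontal axis, nt) is plotted against normalised reads of 24–33 nt, with sense reads upward and antisense reads downward, for WT (blue, left) and KO (red, right) on the same scale within a locus. Gm47906 has a single dominant start at position 470, whereas the starts of Gm30948 are spread, with the most read at position 1902.

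Several starts lay close together in groups, taken as starts on a strand with gaps of at most 10 nt. These groups were formed after the values were seen and are therefore described with no p-value. At Gm37924, starts at 1589 to 1593 held 482 reads in WT and 348 in KO, at a ratio of 0.711 (0.618 to 0.818). Starts at 1110 to 1153 held 120 and 41 reads, with a ratio of 0.337 (0.230 to 0.483). The intervals of these groups did not overlap, but they cover counting error only. Whether parts of the locus respond unequally to the genotype was not tested. At Gm26809, starts at 619 to 637 and at 780 to 794 had ratios of 0.227 (0.183 to 0.281) and 0.266 (0.173 to 0.398). At Gm30948, starts at 2076 to 2098 had a ratio of 0.382 (0.285 to 0.507), and the start at 1902 had a ratio of 0.617 (0.453 to 0.835). The intervals overlapped at both of these loci, which does not show that the groups had the same ratio.

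To compare the libraries, all reads of 24–33 nt specific to a locus were set against the miRNA reads. The level was lower in KO at every locus. It was 296 normalised reads in WT and 185 in KO at Gm37924, a ratio of 0.624 (0.555 to 0.701). The Gm26809 level was 359 in WT and 94.1 in KO, a ratio of 0.262 (0.226 to 0.302). At Gm30948 it was 232 and 110, a ratio of 0.475 (0.410 to 0.548). At Gm47906 it was 243 and 89.4, a ratio of 0.369 (0.315 to 0.430). The 4 intervals lay entirely below 1, as did those of 523 of the 1052 genes with 20 or more reads (49.7%), and most of those genes had fewer reads and hence wider intervals. No locus had a ratio above 2 or an interval above 1, which were found for 1.05% and 0.76% of those genes. Ratios below 0.5 were found at 3 of the 4 loci and at 532 of the 1052 genes (50.6%). The median ratio of those genes was 0.493, with quartiles of 0.328 and 0.753, so that Gm30948, Gm47906 and Gm37924 lay between the quartiles and Gm26809 below them.

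The size of the difference was unequal among the loci. Fisher's exact test on the reads, two-sided and adjusted by Benjamini-Hochberg over the 6 pairs of loci, found that the ratios of all 6 pairs differed beyond counting error. The differences rest on how often sequences were read: with each distinct sequence counted a single time, the 4 intervals overlapped and the order of 3 of the 6 pairs turned, all but those with Gm26809. This test compares the 2 libraries and not the genotypes. The Gm37924 ratio was 2.38 times that of Gm26809 (Fisher's exact test, adjusted p = 1.9e-20) and 1.69 times that of Gm47906 (adjusted p = 1.03e-07). It was 1.31 times that of Gm30948 (Fisher's exact test, adjusted p = 0.00431). The Gm26809 ratio was 0.552 times that of Gm30948 (Fisher's exact test, adjusted p = 1.87e-08) and 0.711 times that of Gm47906 (adjusted p = 0.00202). The Gm30948 ratio was 1.29 times that of Gm47906 (Fisher's exact test, adjusted p = 0.0174), the smallest difference of the 6. The order of this pair turned without the most read sequence of each locus (0.473 and 0.503) and without the most read start (0.440 and 0.446).

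All other gene-specific reads of 24–33 nt numbered 107712 in WT and 61766 in KO, a ratio of 0.565 (0.559 to 0.570). In the same exact test, adjusted over the 4 loci, the ratio was lower than this at Gm26809 (adjusted p = 8.46e-29), Gm47906 (adjusted p = 3.78e-08) and Gm30948 (adjusted p = 0.0236). Without its most read sequence, the Gm47906 interval (0.348 to 0.720) included 0.565. With each distinct sequence of a locus counted once, the intervals of Gm47906 (0.366 to 1.51) and Gm30948 (0.463 to 0.769) also included it. That of Gm26809 (0.352 to 0.551) stayed below it. The pool was left unchanged in these comparisons. The Gm37924 ratio was 1.10 times that of the other reads and did not pass the exact test (adjusted p = 0.0946). This pool is weighted toward the most read genes and its ratio was higher than the median of genes given above. Both the pool and those genes include protein-coding genes and reads of either strand, which need not be piRNAs.

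**Figure D2:**
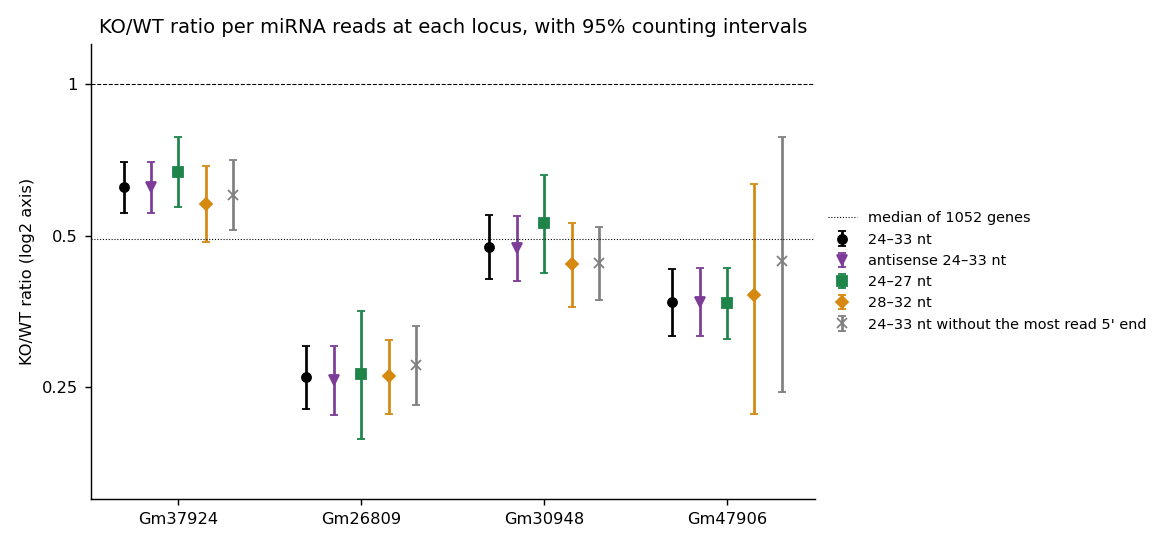
KO over WT ratios per miRNA read are plotted on a log2 axis for each locus, with exact 95% counting intervals as bars. Colours mark all 24–33-nt reads, antisense reads, the classes of 24–27 and 28–32 nt, and reads without the most read start. The dotted line is the median of the 1052 genes, 0.493, and the dashed line is a ratio of 1. Gm26809 lies lowest at 0.262 and Gm37924 highest at 0.624.

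The ratio was then taken for each strand and length class. Antisense and sense reads of Gm26809 had ratios of 0.258 (0.220 to 0.302) and 0.281 (0.195 to 0.399), with no difference detected (p = 0.696, Fisher's exact test). Sense reads at the other loci were too few to show a difference between strands, with at most 13 in a library. In fetal testes MILI holds the shorter piRNAs and MIWI2 the longer, for which classes of 24–27 and 28–32 nt were used. The ratios of the longer and the shorter class were 0.578 (0.486 to 0.686) and 0.670 (0.570 to 0.786) at Gm37924. They were 0.263 (0.222 to 0.310) and 0.266 (0.197 to 0.354) at Gm26809, and 0.438 (0.361 to 0.530) and 0.529 (0.422 to 0.660) at Gm30948. At Gm47906 they were 0.380 (0.221 to 0.632) and 0.367 (0.312 to 0.432). None of the 4 comparisons of the classes passed Fisher's exact test (lowest adjusted p = 0.433). The intervals are wide, and a modest difference between classes would not have been detected at this depth. When the most read start was left out, the longer class of Gm37924 had 0.529 times the ratio of the shorter. This choice was made after the values were seen, so no p-value is given for it. The shorter class then included the 26-nt sequence from start 1591, read 91 times in WT and 97 times in KO (ratio 1.05).

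The loci differed from each other in length, and the libraries within a locus much less so. The most frequent length was 27 nt at Gm47906, 28 nt at Gm37924 and 29 nt at Gm26809 in both libraries. At Gm30948 it was 29 nt in WT and 28 nt in KO. Reads of 24–27 nt made up 90.7% of Gm47906 in WT (88.1% to 92.7%) and 90.4% in KO (85.9% to 93.6%). They made up 24.9% and 25.3% of Gm26809, 39.5% and 44.0% of Gm30948, and 51.0% and 54.8% of Gm37924. The intervals of WT and KO overlapped at each locus. Reads of 16–23 nt were few, between 7 and 25 in WT and between 2 and 9 in KO. Reads of 34–36 nt numbered at most 8 in a library.

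**Figure D3:**
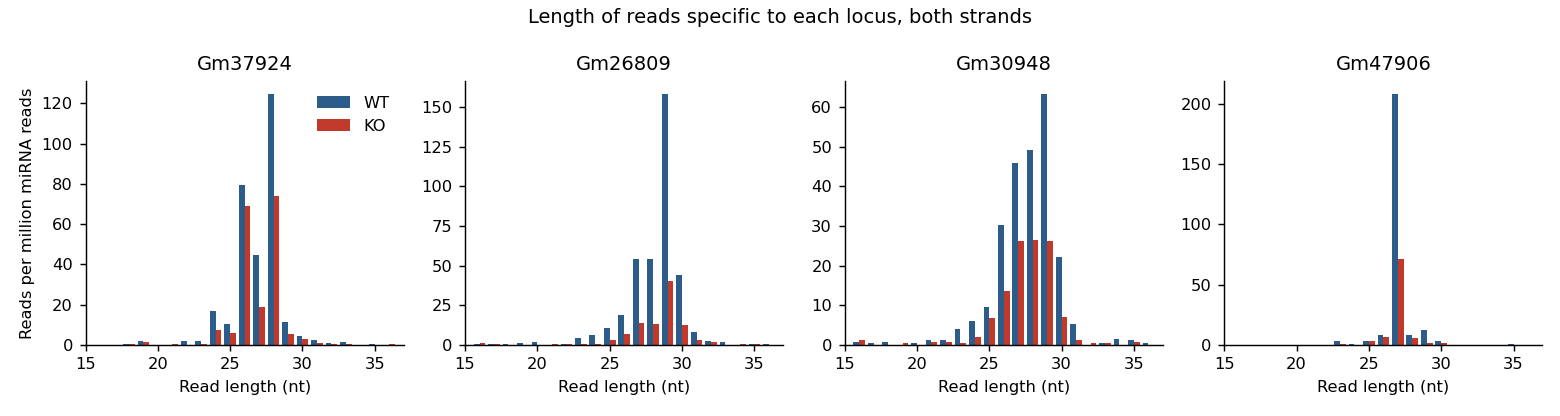
Normalised reads are plotted against read length in nt for each locus, with WT in blue and KO in red and both strands summed. Each locus has its own vertical scale. The peak is at 28 nt for Gm37924, 29 nt for Gm26809 and 27 nt for Gm47906 in both libraries, and Gm30948 has a broader distribution.

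Reads from the most read start had their own length pattern. From position 470 of Gm47906, 90.9% of reads were 27 nt in WT (88.2% to 93.0%) and 86.2% in KO (80.9% to 90.2%). From position 1593 of Gm37924, 28-nt reads made up 69.1% in WT and 74.3% in KO, and most of the others were 26 nt. From position 630 of Gm26809, 29-nt reads made up 68.9% and 69.8%. From position 1902 of Gm30948, 28-nt reads made up 57.4% and 54.2%, and 27-nt reads 31.3% and 43.1%. Thus Gm47906 had a nearly fixed 3′ end and Gm30948 a less fixed one. The most read 3′ end of Gm37924, position 1566, was shared by reads from starts 1593 and 1591, and held 42.8% of the reads in WT (39.3% to 46.4%) and 54.8% in KO (50.3% to 59.2%).

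Uracil at position 1 was among the measures named when the loci were chosen and is given as a description. It was found in 96.7% of Gm37924 reads in WT and 97.9% in KO. It was found in 98.4% and 96.1% of Gm47906 reads, and in 83.4% and 83.8% of Gm26809 reads. By reads, Gm30948 stood lower, at 56.6% in WT (52.5% to 60.5%) and 51.8% in KO (46.0% to 57.5%), and its 2 most read starts began with adenine and cytosine. With position 1902 left out, uracil was at position 1 in 70.4% of Gm30948 reads in WT and 69.5% in KO. By starts, each counted once, Gm30948 was not the lowest, at 61.5% in WT and 67.7% in KO. The shares by starts were 84.1% and 78.7% at Gm37924, 56.4% and 62.7% at Gm26809, and 55.6% and 50.0% at Gm47906.

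Adenine at position 10 varied widely between loci. Its share was 72.0% in WT (68.7% to 75.1%) and 79.7% in KO (75.8% to 83.1%) at Gm37924, and 46.7% and 52.1% at Gm30948. At Gm26809 it was 23.5% (20.9% to 26.4%) and 24.1% (19.1% to 29.8%). At Gm47906 it was 0.980% (0.450% to 2.12%) and 2.18% (0.936% to 5.01%), and its dominant sequence has cytosine there. At Gm37924 other positions held as much adenine, up to 80.2% in WT. When each start was counted once, the shares at Gm37924, Gm26809 and Gm30948 came together, between 41.7% and 42.3% in WT and between 37.3% and 46.2% in KO.

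**Figure D4:**
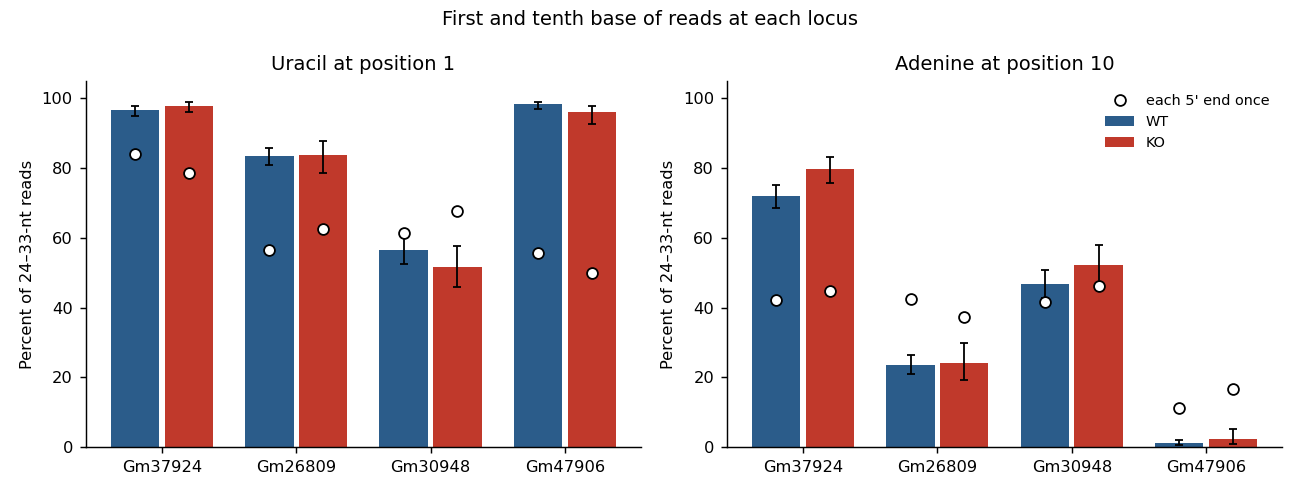
Bars show the percent of 24–33-nt reads with uracil at position 1 (left) and adenine at position 10 (right) for each locus in WT (blue) and KO (red), with 95% Wilson intervals, and open circles show the percent when each 5′ end is counted once. Adenine at position 10 ranges from 0.980% at Gm47906 to 79.7% at Gm37924 by reads, and the circles of the first 3 loci lie between 37.3% and 46.2%.

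The sense reads, though few, carried adenine at position 10 more often than at their other positions. All 7 sense reads of Gm37924 in WT and all 5 in KO had it, against a mean of 29.9% and 29.1% over the other positions. Of the Gm30948 sense reads, 10 of 13 in WT and 8 of 8 in KO had it, against 32.5% and 33.5%. Of the Gm26809 sense reads, 62.6% in WT (54.5% to 70.0%) and 52.4% in KO (37.7% to 66.6%) had it, against 25.4% and 27.3%. Among Gm26809 antisense reads the share was only 15.9% and 18.1%. At Gm47906, 0 of 2 sense reads had it. These shares were compared with other positions of the same reads and not tested.

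Pairs of opposite 5′ ends that overlap by 10 nt are the other mark of cleavage guided by a piRNA. Each pair was weighted by the product of its reads over both libraries, for overlaps of up to 30 nt. At Gm26809, 15.2% of the weighted pairs overlapped by 10 nt, in 13 pairs of positions, against a mean of 2.92% for the other overlaps. The pair with the most reads joined sense starts at 737 (12 reads) to antisense starts at 746 (16 reads). The overlap of 7 nt carried 12.5% and that of 9 nt 9.92%. Without the pair with the most reads the share at 10 nt was 6.67%, and 5 other overlaps carried more. At Gm37924 the share was 60.9%, but it rested on 2 sense reads at position 1584 opposite the 548 reads at position 1593, and it was 0.142% without that pair. At Gm30948 an overlap of 14 nt carried more weight (40.6%) than that of 10 nt (16.6%), and 1 sense read at position 2077 entered both. That sense read was from KO, and in WT alone 0 of 37 weighted pairs overlapped by 10 nt. At Gm47906 the share was 0.663%, with 2 sense reads in all.

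The partner of a piRNA may also come from elsewhere in the genome. Reads of 24–33 nt in the whole library whose first 10 bases were the reverse complement of the first 10 bases of the most read sequence of each locus were therefore counted. For Gm47906 there were 99 such reads in WT and 71 in KO, of 66 distinct sequences. Their ratio was 0.706 (0.513 to 0.968). The 14 other windows along the same sequence had a median of 1 read and a maximum of 18 in WT. Of these 170 reads, 108 matched transcripts of several genes and 56 matched no transcript, and 43 were of 1 sequence. The corresponding counts were 1 and 2 for Gm37924, of which 2 reads lay at its own locus, and 0 in both libraries for Gm26809 and Gm30948. Hence Gm47906, which had almost no sense reads of its own, was the locus with the most reads that could pair with its dominant sequence at 10 nt. The sequence searched was 84.6% of the reads in WT at Gm47906, but 30.5% at Gm37924, 26.9% at Gm26809 and 14.2% at Gm30948. At Gm30948 it began at position 2090, so the most read start, 1902, was not searched. The loci were thus not searched to an equal extent.

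The sequence around each dominant read was compared with all annotated transcripts by BLAST. Around the Gm47906 sequence, 187 other genes had a similar stretch that covered it, with a median identity of 83.2%. The numbers were 11 for Gm30948, 3 for Gm37924 and 1 for Gm26809. Of all 24-base words of the transcripts, 10.8% at Gm47906, 29.0% at Gm30948, 34.1% at Gm37924 and 53.2% at Gm26809 also occurred in other genes. Reads matching a locus alone among transcripts may have further copies in the genome sequence, which was not used here.

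Reads that also matched other genes were left out of the values above. They numbered 1169 in WT and 569 in KO at Gm30948, more than its specific reads, with a ratio of 0.479 (0.433 to 0.530), close to that of the specific reads. At Gm26809 they numbered 629 and 174, a ratio of 0.272 (0.229 to 0.323). At Gm37924 they numbered 306 and 118, a ratio of 0.380 (0.305 to 0.471), and this interval lay entirely below that of its specific reads. At Gm47906 they were few, 34 and 15.

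Among reads that matched no transcript exactly and a locus with 1 mismatch, a part differed only at the last base. At position 470 of Gm47906, such reads were 13.6% of the exact and last-base reads in WT (11.2% to 16.5%) and 16.3% in KO (12.3% to 21.4%). The last base was A in 87 of 90 such reads in WT and in 39 of 41 in KO, and most were 28 nt, the dominant length plus 1 base. At position 1902 of Gm30948 the share was 34.3% in WT (27.7% to 41.6%) and 28.7% in KO (20.8% to 38.2%), with A in 36 and G in 23 of 60 reads in WT and A in 12 and G in 16 of 29 in KO. At Gm37924 and Gm26809 the share was between 0.602% and 1.15%. Whether these bases were added to the RNA or belong to another copy of the sequence was not tested.

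The base after the 3′ end of antisense reads was read from the transcript, since primary piRNAs are often cut upstream of a uracil. It was uracil for 73.1% of Gm37924 reads in WT (69.8% to 76.2%) and 80.1% in KO (76.3% to 83.5%). Counted once per 3′ end, it was uracil for 25 of 91 ends in WT and 15 of 50 in KO, beside the 25.7% of uracil in the antisense strand of that locus. By reads it was 21.5% and 21.6% at Gm26809, 29.2% and 27.4% at Gm30948, and 1.80% and 2.18% at Gm47906. Antisense reads followed at the next base by the start of another antisense read made up 27.6% at Gm37924 in WT and 17.7% in KO. Such followed reads made up at most 3.69% in WT and 1.51% in KO at the other loci. For this count 1 read at the next base was enough, and fewer starts were seen in KO. At Gm37924, 65 WT reads of 26 nt from position 1593 counted through a start with 3 WT reads. No read began just after its most read 3′ end, position 1566.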

How the data were processed

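Small RNA libraries were prepared by the authors from total RNA of E16.5 testes with the TruSeq Small RNA kit and sequenced on a MiSeq. The deposited files give, per library, each distinct adaptor-clipped sequence of 11–48 nt and its raw read count, and the labels name mm9, which was not used here. Sequences were matched exactly, on both strands, to 141767 GENCODE M21 transcripts (GRCm38) with Python 3.11.15 and numba 0.67.0. A sequence matching transcripts of 1 gene only was called specific to it. Reads of miRNA hairpins, ribosomal RNA and other structural RNAs were left out of the comparison with other genes and of the search for pairing reads. Counts were divided by reads in 2202 miRNA hairpins and multiplied by 1000000. Intervals and Fisher's exact tests were computed with SciPy 1.17.1, and similar transcripts were found with BLAST 2.17.0 (e-value 1e-05). The matcher and intervals were tested on simulated data. The simulated reads were drawn independently, so this does not test the intervals for reads that are not independent molecules. The members and lists were chosen with earlier results of these data known. Named were the 4 loci, their nearest or overlapping genes and the 3 most read sequences of each; Gm47652 and the start groups were added after values were seen. Alternatives changed the normalizing total, the length window, the reads counted, gene specificity and mismatches.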

Additional observations from a re-analysis of the deposited data

How the results depend on the processing

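No paired analysis was possible because each genotype has 1 library and no replicate numbers. For the same reason no library could be left out, and the depth of at most 906 reads per locus and library limits every comparison within a locus. Over 11 alternatives each, the locus ratio ranged from 0.534 to 0.726 at Gm37924, 0.249 to 0.442 at Gm26809, 0.440 to 0.598 at Gm30948 and 0.363 to 0.750 at Gm47906. Its interval stayed below 1 in all of them except at Gm47906 with each distinct sequence counted once (0.750, 0.366 to 1.51). The cause of the changes below was not tested.

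Relative to reads of all lengths, the ratio was 0.726 at Gm37924, 0.305 at Gm26809 and 0.553 at Gm30948, and 40.6% of genes lay below 0.5. With every sequence counted a single time it was 0.534, 0.442, 0.598 and, at Gm47906, 0.750. It was 0.553 at Gm37924 with sequences of several genes, and 0.561 at Gm30948 with 1-mismatch sequences. At Gm47906 it was 0.503 without the most read sequence and 0.446 without the most read start, an alternative chosen after seeing the data.

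The antisense over sense quotient of ratios at Gm26809 turned from 0.918 to 1.254 when distinct sequences were each counted once. Under that setting the quotient of the 28–32-nt over the 24–27-nt ratio turned from 0.988 to 1.41 at Gm26809 and from 1.03 to 0.964 at Gm47906. Without the most read start it turned to 1.10 at Gm26809 and 0.764 at Gm47906, and none of these passed Fisher's exact test before or after. At Gm37924 it went from 0.863 to 0.529, again with the reads chosen after the values were seen.

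Adenine at position 10 also moved. With each distinct sequence counted once, its share in WT and KO was 38.0% and 44.3% at Gm37924, 43.3% and 36.8% at Gm26809, 38.1% and 46.1% at Gm30948, and 9.52% and 12.5% at Gm47906. With each start counted once, chosen after seeing the data, it was 42.0% and 44.7%, 42.3% and 37.3%, 41.7% and 46.2%, and 11.1% and 16.7% in the same order. Without the most read start it was 49.9% and 62.4%, 38.6% and 37.4%, 33.6% and 35.7%, and 14.3% and 26.3%.

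The share of pairs overlapping by 10 nt, without the pair with most reads, was 0.142% at Gm37924, 6.67% at Gm26809, 27.98% at Gm30948 and 1.25% at Gm47906. With each distinct sequence counted once it was 13.0%, 10.9%, 11.9% and 7.50%. These shares pool both libraries, and in WT alone 0 of 37 weighted pairs at Gm30948 overlapped by 10 nt.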
